A study of Mus musculus with 9 samples.

Results

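Expression of the epidermal growth factor (EGF) family ligands and of their ERBB receptors was examined in Balb/c-3T3 mouse fibroblasts transformed by v-Src or expressing STAT3-C. The genes are the receptors Egfr, Erbb2 and Erbb3 and the ligands Hbegf, Ereg, Btc, Epgn, Tgfa, Areg and Nrg1. Every probeset, the group of short probes that an Affymetrix array holds for a transcript, was used where its annotation gave the symbol of a listed gene and no other. This gave 20 of the 45037 probesets tested, for 9 of the 10 genes, out of 18193 genes with a probeset of their own on the array. Areg, which encodes amphiregulin, was matched to no probeset through the annotation used and was not analysed here.

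RNA came from v-Src cells, stably transfected with pMvSrc, from STAT3-C cells, stably transfected with pRc/CMV-STAT3C, and from untransfected Balb/c-3T3 control cells, with 3 arrays a line. v-Src is the oncogenic tyrosine kinase of a chicken retrovirus and activates STAT3 together with other pathways, and STAT3-C is a constitutively active mutant of STAT3, here in a plasmid named for the CMV promoter. All lines were grown in medium with calf serum. Each array holds RNA pooled from 5 dishes at a separate passage, so that p-values measure the spread between passages of a line. The controls carried no plasmid, and the number of clones behind each stable line is not given in the sources used here.

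EGF family ligands are made as membrane-bound precursors, are cut from the cell surface by proteases such as ADAM17 and then bind ERBB receptors, which pair and phosphorylate each other. EGFR binds EGF, TGF-alpha, amphiregulin and epigen. HB-EGF, betacellulin and epiregulin bind both EGFR and ERBB4, and neuregulins bind ERBB3 and ERBB4. ERBB2 has no known ligand of its own and acts as a partner, and ERBB3 has little kinase activity. Fibroblasts respond to EGF through EGFR, and signals from the receptors run largely through RAS and ERK and through PI3-kinase. STAT3 is among the proteins that EGFR can activate, and Src can phosphorylate EGFR.

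The deposited values are log2 intensities from Robust Multichip Average (RMA), and a difference between lines is a log2 fold change. The 9 arrays had similar medians, between 6.27 and 6.39, and arrays of a line correlated at 0.990 to 0.995. A gene's group mean under the lower quartile of all probesets, which lay at 5.13 in v-Src, 5.11 in STAT3-C and 5.12 in control cells, is called near background here. The mouse Src probesets cannot be taken to read the viral gene, and neither was called in v-Src or STAT3-C cells. Of 4 Stat3 probesets, 2 were called higher in v-Src cells, and 1460700_at alone was called in STAT3-C cells, at 0.72 ± 0.15 (log2 fold change ± SE, limma, adjusted p = 0.00827). Of 10 fibroblast markers, 6 were called lower and 2 higher in v-Src cells, and 6 lower and 1 higher in STAT3-C cells. Of all genes, 10.4% were called lower and 9.54% higher in v-Src, and 10.3% lower and 11.9% higher in STAT3-C. Thy1 and Postn were lower in both lines. S100a4, 1 of the 2 called higher in v-Src, was under the fold threshold after quantile normalization again (0.57) and with median centring (0.58). The count was then 1 higher. The call of S100a4 in v-Src was also lost without v-Src replicate 1 or 6 or control replicate 1 or 2. The summed linear signal of the 10 markers was 45252 to 55884 in v-Src, 45460 to 46785 in STAT3-C and 59818 to 65759 in control arrays. The part of this shift in the results was not tested. Markers of other cell types were mixed: 1 of 8 epithelial markers (Cdh1), 2 of 4 endothelial markers (Pecam1 and Tie1), 1 of 5 leukocyte markers (Ptprc) and 0 of 3 measured Schwann and glial markers were near background in every line. Their summed linear signal was 1295 to 1419 in v-Src, 995 to 1093 in STAT3-C and 1010 to 1235 in control arrays for epithelium, and 1420 to 1814 in v-Src, 1321 to 2051 in STAT3-C and 622 to 670 in control arrays for leukocytes. At 1447899_x_at, its brightest probeset, Epcam averaged 9.71 in v-Src, 9.05 in STAT3-C and 9.37 in control cells. It was called higher in v-Src against STAT3-C (0.66, limma, adjusted p = 0.00196). Epcam was the only 1 of the 8 epithelial markers called there (12.5%, beside 4.84% of all genes), and the 8 ranged from -0.35 to 0.66 with a median of 0.02. Against control, 0 of the 8 were called in either line under the main settings, with medians of 0.19 in v-Src and -0.03 in STAT3-C. Among the 5 leukocyte markers, 1 was called higher in v-Src (beside 9.54% of all genes) and 2 in STAT3-C cells (beside 11.9%) against control. In both lines 0 were called lower, beside 10.4% of all genes in v-Src and 10.3% in STAT3-C. The median log2 fold change of the 5 leukocyte markers was 0.11 in v-Src and 0.37 in STAT3-C. The monocyte marker Cd14 was called higher by 2.12 in both lines. The macrophage marker Cd68 was called higher in STAT3-C (1.14, limma, adjusted p = 0.0108) and stood at -0.03 in v-Src. It was called lower in v-Src against STAT3-C (-1.17, limma, adjusted p = 0.0132). The other leukocyte markers were not called against control in either line. The part of these markers in the results was not tested either.

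Egfr, the EGF receptor gene, moved in opposite directions at 2 of its 7 probesets: below control in v-Src cells and above control in STAT3-C cells. At probeset 1424932_at the log2 values were 5.49, 6.06 and 6.05 in v-Src, 7.81, 8.53 and 8.25 in STAT3-C and 6.72, 6.78 and 6.99 in control arrays. The 3 lines did not overlap, with v-Src lowest and STAT3-C highest. The log2 fold change against control was -0.96 ± 0.16 in v-Src (SE, n = 3 a line, limma, adjusted p = 0.00463) and 1.37 ± 0.18 in STAT3-C (limma, adjusted p = 0.00076). In the direct comparison v-Src was 5.03-fold below STAT3-C (log2 -2.33 ± 0.22, limma, adjusted p = 0.00082). With whole-line RNA, fewer expressing cells and less RNA in each cell cannot be told apart.

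The probeset 1435888_at gave the same order of lines. Its log2 values were 7.02, 7.02 and 6.95 in v-Src, 8.44, 9.29 and 8.76 in STAT3-C and 7.91, 7.67 and 8.04 in control arrays. The v-Src arrays lay close together, under every control array, and the STAT3-C arrays lay above them all. Egfr here fell by 0.88 ± 0.11 in v-Src (limma, adjusted p = 0.000994) and rose by 0.95 ± 0.21 in STAT3-C (limma, adjusted p = 0.00975), against control in each case. The difference of v-Src from STAT3-C was -1.83 ± 0.20 (limma, adjusted p = 0.0013).

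A further pair of Egfr probesets rose in STAT3-C cells and was not called in v-Src cells. The log2 values of 1451530_at were 6.85, 6.94 and 7.04 in v-Src, 7.28, 7.77 and 7.84 in STAT3-C and 6.68, 6.99 and 6.75 in control arrays. v-Src and control overlapped here, and the STAT3-C arrays lay above both. Its log2 fold change was 0.14 ± 0.10 in v-Src (limma, adjusted p = 0.365) and 0.83 ± 0.16 in STAT3-C (limma, adjusted p = 0.00575). Its direct difference of -0.69 ± 0.15 (limma, adjusted p = 0.0183) was not called without v-Src replicate 1 (-0.64, adjusted p = 0.0705), STAT3-C replicate 2 (-0.62, adjusted p = 0.0617) or STAT3-C replicate 3 (-0.58, adjusted p = 0.0499), in a range of adjusted p of 0.00472 to 0.0705 over all alternatives. Probeset 1460420_a_at, the brightest of Egfr, had log2 values of 8.40, 8.51 and 8.47 in v-Src, 8.78, 8.91 and 9.08 in STAT3-C and 8.23, 8.36 and 8.16 in control arrays. It rose by 0.67 ± 0.11 in STAT3-C (limma, adjusted p = 0.00236), while v-Src stood at 0.21 ± 0.08 (limma, adjusted p = 0.101), with its 3 arrays above the controls.

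The remaining Egfr probesets, 1432647_at, 1454313_at and 1457563_at, were not called in any comparison, and 1457563_at was near background in all 3 lines. The largest difference among them against control was 0.36 at 1457563_at in STAT3-C (limma, adjusted p = 0.0674). Close to it in size was 1454313_at in v-Src, at -0.35 (limma, adjusted p = 0.026). Its 3 v-Src arrays lay under the controls, short of the fold threshold. In STAT3-C 1454313_at stood at -0.26 (limma, adjusted p = 0.264). Probesets of a gene can read different transcript ends or variants, and the files do not say which. The annotation gives 1424932_at and 1451530_at the same reference mRNA, yet the 95% interval of the v-Src change was -1.35 to -0.58 at 1424932_at and -0.11 to 0.38 at 1451530_at. Thus STAT3-C cells were called above control at 4 of 7 Egfr probesets, and v-Src cells were called below control at 2 of 7.

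**Figure D1:**
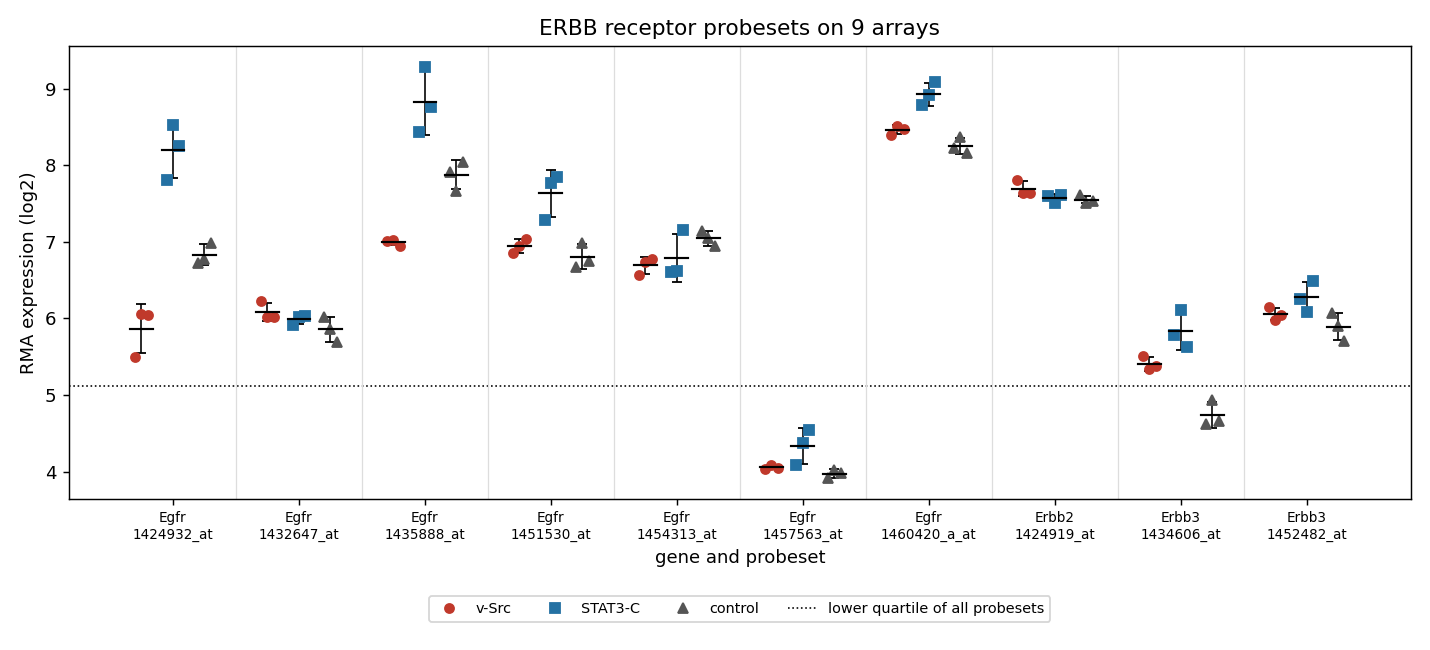
Log2 intensity of the receptor probesets on each array. Circles are v-Src, squares STAT3-C and triangles control arrays, bars are the mean ± SD of 3 arrays, and the dotted line is the lower quartile of all probesets. Egfr 1424932_at and 1435888_at show 3 separate levels, with means of 5.87 in v-Src, 8.20 in STAT3-C and 6.83 in control cells at 1424932_at, whereas Erbb2 lies between 7.51 and 7.80 throughout.

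Erbb2, which encodes the partner receptor without a ligand of its own, differed little. Its probeset 1424919_at read 7.80, 7.64 and 7.64 in v-Src, 7.60, 7.51 and 7.61 in STAT3-C and 7.61, 7.51 and 7.53 in control arrays. The log2 fold change was 0.14 in v-Src (95% interval -0.04 to 0.33) and 0.02 in STAT3-C (-0.18 to 0.22), so that a change of more than 1.5-fold lay outside both intervals. The v-Src arrays were all above the controls, by less than the fold threshold.

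Erbb3, which encodes the neuregulin receptor with a weak kinase, rose in both lines at 1434606_at, where the control level was near background. The log2 values were 5.51, 5.34 and 5.38 in v-Src, 5.78, 6.11 and 5.62 in STAT3-C and 4.63, 4.94 and 4.66 in control arrays. The control arrays lay below all 6 others. The log2 fold change was 0.67 ± 0.11 in v-Src (limma, adjusted p = 0.00339) and 1.10 ± 0.15 in STAT3-C (limma, adjusted p = 0.000896), both limited by the background level of the controls, and the direct difference of -0.43 ± 0.13 was not called (limma, adjusted p = 0.0571). The other Erbb3 probeset, 1452482_at, was not called, at 0.16 ± 0.11 in v-Src and 0.38 ± 0.14 in STAT3-C. Erbb4, the fourth receptor of the family, was near background in all 3 lines, with means of 3.70 in v-Src, 3.65 in STAT3-C and 3.81 in control cells.

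The promoters of Egfr and Erbb2 are shown because both genes lie on mouse chromosome 11 and Egfr was called in both lines whereas Erbb2 was called in neither. Of the 10 listed genes, 6 (Areg, Btc, Egfr, Epgn, Erbb2 and Tgfa) had an entry in the RefSeq promoter table of build GRCm38.p6, and Erbb3, Ereg, Hbegf and Nrg1 had none. Capitals mark the GC box, GGGCGG or its complement CCGCCC. The 250 bases upstream of each start, 5′ to 3′, span chr11:16751953-16752202 for Egfr and chr11:98412234-98412483 for Erbb2, both on the plus strand.
Egfr: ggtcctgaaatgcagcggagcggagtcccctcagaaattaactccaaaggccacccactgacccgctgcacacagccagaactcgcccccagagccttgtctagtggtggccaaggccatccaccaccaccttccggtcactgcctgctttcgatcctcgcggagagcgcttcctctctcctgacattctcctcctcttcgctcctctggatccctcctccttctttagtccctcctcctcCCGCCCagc
Erbb2: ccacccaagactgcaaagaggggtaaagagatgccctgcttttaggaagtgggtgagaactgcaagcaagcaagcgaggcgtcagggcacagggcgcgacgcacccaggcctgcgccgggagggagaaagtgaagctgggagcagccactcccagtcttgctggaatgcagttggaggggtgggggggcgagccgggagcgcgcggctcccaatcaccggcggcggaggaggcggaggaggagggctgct

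Egfr held a GC box from 9 to 4 bases before the start and Erbb2 held none. On both strands, 32.7% of 32851 promoters of this length held GGGCGG, so its presence is common. The STAT letters TTCNNNGAA (7.02% of promoters), the same ends around a gap of 4 bases (5.85%) and the AP-1 letters TGANTCA (6.75%) were in none of the 6 promoters. The TATA letters TATAAA (12.4% of promoters) were in Areg and Epgn. These are letter matches in a short window and were not tested against the expression values.

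Hbegf, which encodes heparin-binding EGF-like growth factor, was the ligand that rose most against control in both lines. Probeset 1418350_at read 9.16, 8.96 and 9.31 in v-Src, 8.23, 7.91 and 9.01 in STAT3-C and 7.01, 7.18 and 6.87 in control arrays. All v-Src and STAT3-C arrays were above all control arrays, with STAT3-C replicate 3 within the v-Src range. The fold was 4.34 in v-Src (log2 2.12 ± 0.12, limma, adjusted p = 4.1e-05) and 2.57 in STAT3-C (log2 1.36 ± 0.25, limma, adjusted p = 0.00451). The difference of v-Src from STAT3-C was 0.76 ± 0.26 (limma, adjusted p = 0.0827), and without STAT3-C replicate 3 it was 1.07 (limma, adjusted p = 0.00637), in a range of adjusted p of 0.00637 to 0.231 over all alternatives.

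The other Hbegf probeset, 1418349_at, gave the same direction in each line. Its values were 8.35, 8.03 and 8.67 in v-Src, 7.73, 7.66 and 8.16 in STAT3-C and 6.50, 7.20 and 6.60 in control arrays. It rose by 1.58 ± 0.23 in v-Src (limma, adjusted p = 0.00208) and by 1.08 ± 0.21 in STAT3-C (limma, adjusted p = 0.0051), and the lines did not differ beyond the threshold (0.50 ± 0.19, limma, adjusted p = 0.111). Hbegf therefore rose in both lines at both probesets.

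Ereg, which encodes epiregulin, rose with v-Src and lay at the control level with STAT3-C. Probeset 1419431_at read 9.74, 10.16 and 10.35 in v-Src, 9.29, 9.01 and 9.40 in STAT3-C and 9.03, 9.16 and 9.47 in control arrays. STAT3-C and control arrays overlapped, and all v-Src arrays were above them. The change was 0.86 ± 0.18 in v-Src (limma, adjusted p = 0.0103) and 0.01 ± 0.15 in STAT3-C (limma, adjusted p = 0.957, 95% interval -0.32 to 0.35). The direct difference of 0.85 ± 0.17 (limma, adjusted p = 0.0132) lost its call without STAT3-C replicate 1 (0.88, adjusted p = 0.053), the highest adjusted p of a range from 0.00347.

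Btc and Epgn, which encode betacellulin and epigen, lie with Ereg and Areg on chromosome 5 as consecutive protein-coding genes in the order Epgn, Ereg, Areg, Btc. Btc 1435541_at read 6.78, 6.72 and 6.30 in v-Src, 5.97, 6.18 and 5.90 in STAT3-C and 5.97, 6.30 and 6.01 in control arrays. It stood at 0.51 ± 0.15 in v-Src (limma, adjusted p = 0.0441) and -0.08 ± 0.12 in STAT3-C, with v-Src under the fold threshold of 1.5, and the direct difference was 0.58 ± 0.14 (limma, adjusted p = 0.0275, fold 1.499). Without v-Src replicate 6, v-Src was called higher, at 0.66 (limma, adjusted p = 0.0154) against control and 0.73 (limma, adjusted p = 0.0127) against STAT3-C. The same held against control without control replicate 2 (0.61) and against STAT3-C without STAT3-C replicate 2 (0.66). Epgn 1449994_at stood at 0.34 ± 0.14 in v-Src and -0.09 ± 0.18 in STAT3-C and was not called. Btc 1421161_at was near background in all 3 lines.

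Tgfa, which encodes TGF-alpha, a ligand of EGFR, was not called at any of its 3 probesets, and 1421943_at was near background in every line. At 1450421_at the values ran from 6.91 to 7.07 in v-Src, from 7.01 to 7.17 in STAT3-C and from 6.82 to 7.01 in control arrays. The log2 fold change was 0.06 in v-Src (95% interval -0.14 to 0.27) and 0.17 in STAT3-C (-0.05 to 0.39).

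Nrg1, which encodes neuregulin 1, a ligand of ERBB3 and ERBB4, fell with v-Src. Probeset 1456524_at read 6.83, 7.29 and 7.12 in v-Src, 7.80, 7.83 and 7.69 in STAT3-C and 8.13, 8.14 and 8.30 in control arrays. The 3 lines did not overlap, with v-Src lowest and control highest. It fell by 1.11 ± 0.13 in v-Src (limma, adjusted p = 0.000729) and stood at -0.42 ± 0.09 in STAT3-C (limma, adjusted p = 0.0116), short of the 1.5-fold required. The direct difference of -0.70 ± 0.12 (limma, adjusted p = 0.00797) was -0.57 (adjusted p = 0.0185) without v-Src replicate 1, again short of it.

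**Figure D2:**
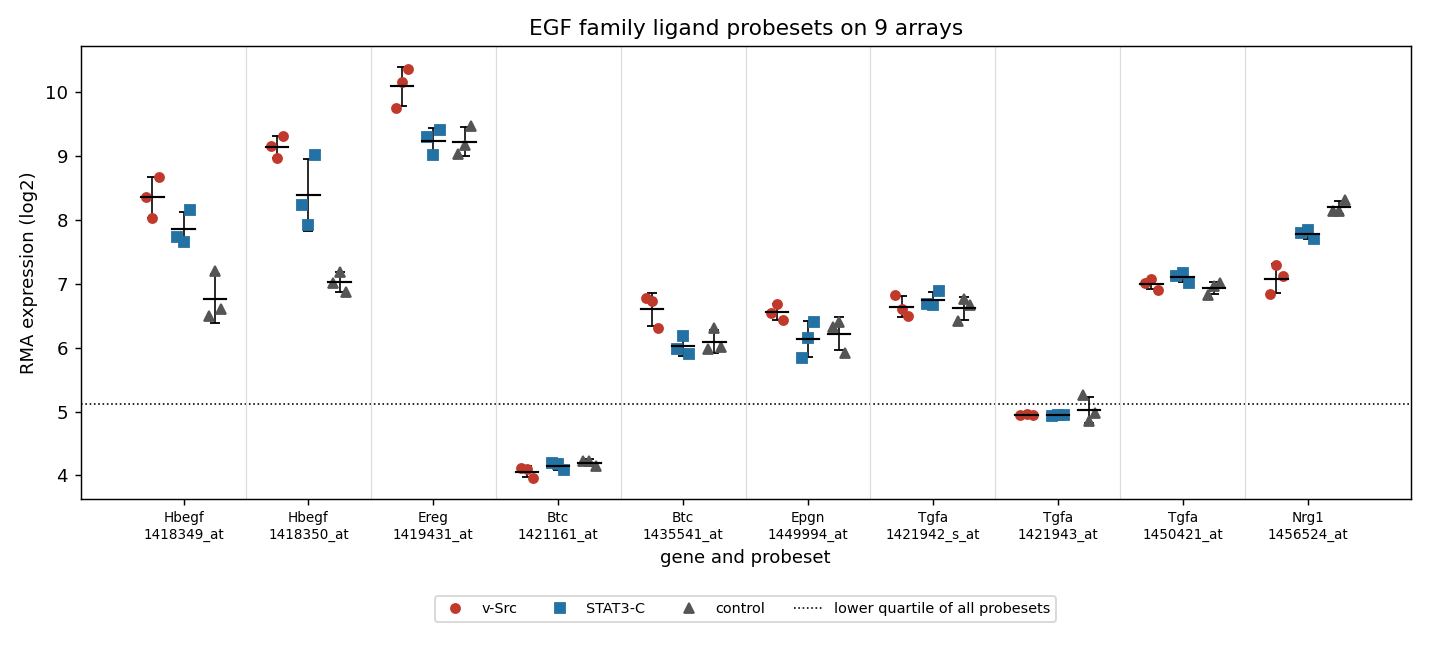
Log2 intensity of the ligand probesets on each array, drawn as in the plot of the receptors. Both Hbegf probesets and Ereg are highest in v-Src arrays, and Nrg1 is highest in control arrays (8.13 to 8.30) and lowest in v-Src arrays (6.83 to 7.29).

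A probeset was called with a limma adjusted p under 0.05 (Benjamini-Hochberg over 45037 probesets) and a fold of at least 1.5. In v-Src cells against control, 4 of 20 member probesets were called higher (8.75% of all probesets were) and 3 lower (8.10% were). In STAT3-C cells, 7 were called higher (9.68%) and 0 lower (8.58%); at an unadjusted p under 0.05, 1 was lower, Nrg1, and SAM also called 0. In v-Src against STAT3-C, 1 was called higher (4.99%) and 4 lower (5.33%). The 3 of these 4 that belong to Egfr share a gene and are not independent. The same limit holds against control. The 7 called higher in STAT3-C belong to Egfr, Hbegf and Erbb3 only, and 4 of them to Egfr. In v-Src the 4 called higher belong to Hbegf, Ereg and Erbb3, and the 3 called lower to Egfr and Nrg1.

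With 1 probeset a gene, the brightest, 2 of 9 measured genes were called higher in v-Src cells (Hbegf and Ereg, 9.54% of all genes) and 1 lower (Nrg1, 10.4%). In STAT3-C cells 2 were called higher (Egfr and Hbegf, 11.9%) and 0 lower (10.3%). With the probesets of each gene averaged, Egfr was not called in STAT3-C (0.58, limma, adjusted p = 0.00475, short of 1.5-fold) and Erbb3 was (0.74, limma, adjusted p = 0.000335). In v-Src against STAT3-C, Ereg was higher (4.84%) and Nrg1 lower (6.83%). The median log2 fold change over the 9 genes was 0.21 in v-Src, 0.02 in STAT3-C and 0.12 in the direct comparison, against 0.02 in v-Src, 0.04 in STAT3-C and -0.03 in the direct comparison over all genes.

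**Figure D3:**
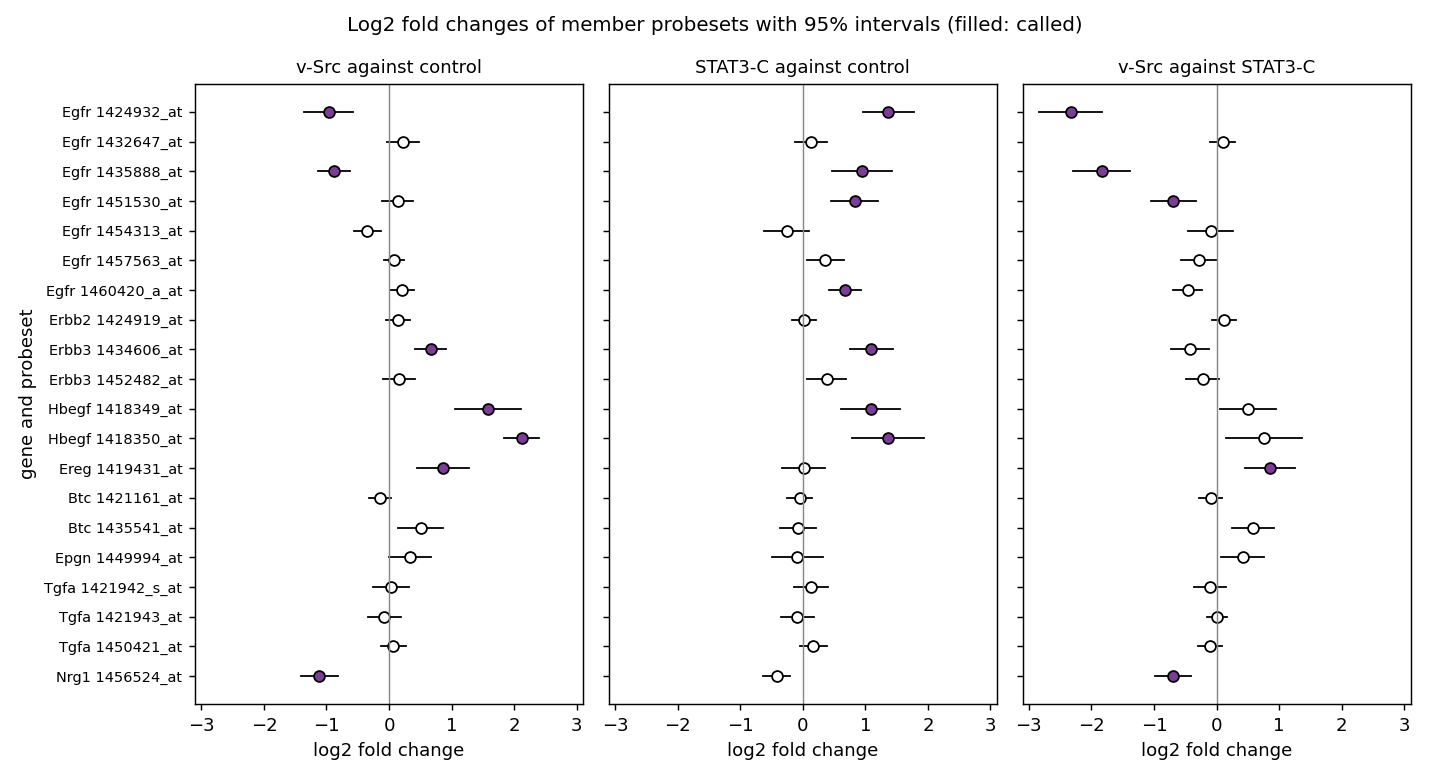
Log2 fold change of every member probeset with its 95% interval, in 3 panels for v-Src over control, STAT3-C over control and v-Src over STAT3-C. Filled points were called. Egfr 1424932_at lies at -0.96 in v-Src and 1.37 in STAT3-C, and Hbegf is above 1 in both.

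No other gene of the family was called under the settings used. Of Egf, Erbb4, Nrg2, Nrg3 and Nrg4, 0 were called in any comparison, by limma or by SAM, and at an unadjusted p under 0.05 the counts were 0 higher and 1 lower in v-Src, 0 higher and 2 lower in STAT3-C and 1 higher and 1 lower between them. Nrg3 was also near background throughout. Nrg2 stood at -0.58 ± 0.09 in v-Src cells (limma, adjusted p = 0.0036), just under the fold threshold, and was called without v-Src replicate 5 (-0.60), v-Src replicate 6 (-0.59) or control replicate 3 (-0.67). It was also called lower in v-Src after quantile normalization again (-0.65) and with median centring (-0.65), which makes the count 1 lower there.

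Of 11 genes for proteases that release EGF ligands from the cell surface and for their regulators, 6 were called higher in v-Src cells (54.5%, against 9.54% of all genes) and 3 in STAT3-C cells (27.3%, against 11.9%). In each line 1 was called lower (9.09%), near the 10.4% of all genes in v-Src and 10.3% in STAT3-C. Both counts of higher calls include Timp3, an inhibitor of ADAM17 and other metalloproteases, and without it they were 5 of 10 and 2 of 10. The median log2 fold change of the 11 was 0.61 in v-Src, 0.15 in STAT3-C and -0.05 between the lines. Adam17, the main sheddase of several of these ligands, rose by 0.81 ± 0.08 in v-Src (limma, adjusted p = 0.00043) and stood at 0.15 ± 0.10 in STAT3-C, and the direct difference of 0.66 was called (limma, adjusted p = 0.00415). Adam10, a related protease, rose by 0.87 in v-Src and 1.14 in STAT3-C, and the rhomboid protease gene Rhbdl2 by 1.05 in v-Src and 0.97 in STAT3-C. Adam12 fell by 1.48 in v-Src and by 1.56 in STAT3-C. Timp3 rose by 0.72 in v-Src and by 3.01 in STAT3-C, the largest rise of the list there, a direct difference of -2.29 ± 0.23 (limma, adjusted p = 0.000977). The other direct calls were Adam17 and Adam19 (0.66 ± 0.17), and the call of Adam19 was lost without any of v-Src replicates 1 and 6 and STAT3-C replicates 1 and 3, at 0.54 to 0.64. Adam9 (0.71) and Adam19 (0.61) completed the 6 genes with v-Src, and each lost its call without v-Src replicate 1, v-Src replicate 6 or control replicate 3 (0.58 to 0.66 for Adam9 and 0.49 to 0.59 for Adam19). Adam19 was also under the fold threshold in v-Src after quantile normalization again (0.57) and with median centring (0.54), which makes the count 5 of 11 higher.

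Most genes for cell surface proteins that bind heparin-binding ligands or present HB-EGF rose. Gpc1, the glypican-1 gene, rose by 4.60 ± 0.12 in v-Src (24.3-fold, limma, adjusted p = 1.78e-06) and by 3.78 ± 0.12 in STAT3-C (13.8-fold, limma, adjusted p = 7.48e-07). Sdc4, the syndecan-4 gene, rose by 2.38 in v-Src and 0.95 in STAT3-C, and Sdc1 by 1.23 in v-Src and 1.03 in STAT3-C. Set against STAT3-C, v-Src cells had more of Gpc1 (0.82), Sdc4 (1.43) and Cd44 (0.68). These are 3 of 5 called higher (60.0%, beside 4.84% of all genes), and 0 were called lower (6.83% of all genes). Cd44, a carrier of HB-EGF, fell by 0.82 in STAT3-C and stood at -0.14 in v-Src at the brightest of its 4 probesets, and the other 3 were not called in any comparison. Cd9, which encodes the tetraspanin that associates with the HB-EGF precursor, was not called (0.54 in v-Src, 0.08 in STAT3-C), and without v-Src replicate 5 it stood at 0.75 in v-Src (adjusted p = 0.00464). In all, 3 of 5 were called higher in each line (60.0%), beside 9.54% of all genes in v-Src and 11.9% in STAT3-C. Cd44 was the 1 of 5 called lower in STAT3-C, beside 10.3% of all genes. In v-Src 0 of 5 were called lower, beside 10.4% of all genes. The medians of the 5 were 1.23 in v-Src and 0.95 in STAT3-C.

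Among 18 genes for adapters and enzymes that bind phosphorylated receptors, 4 were called higher and 4 lower in v-Src cells, and 4 higher and 1 lower in STAT3-C cells. These are 22.2% higher and 22.2% lower in v-Src, beside 9.54% and 10.4% of all genes. In STAT3-C they are 22.2% higher and 5.56% lower, beside 11.9% and 10.3% of all genes. The median was 0.13 in v-Src and 0.02 in STAT3-C. Grb10, an adapter that binds several receptor tyrosine kinases, rose by 4.58 in v-Src and 4.79 in STAT3-C. The study names Grb10 from these arrays, so that it is not independent evidence. Grb14, a related adapter, fell by 3.49 ± 0.21 in v-Src (limma, adjusted p = 5e-05) and stood at -0.22 ± 0.19 in STAT3-C, and the direct difference was -3.27 ± 0.13 (limma, adjusted p = 5.92e-05). Gab2, a docking protein, rose by 1.54 in v-Src and 2.18 in STAT3-C, and Sos2, a RAS exchange factor, by 0.80 in v-Src and 1.43 in STAT3-C. Pik3r1, the regulatory subunit gene of PI3-kinase, fell by 1.62 in v-Src and by 2.26 in STAT3-C at its brightest probeset. It also fell at 1425515_at, by 1.31 in v-Src and 1.51 in STAT3-C, and was not called against control at 1425514_at and 1451737_at. Nck2 (1.41 in v-Src) and Grb2 (0.61 in STAT3-C) were the other genes called higher, and Grb2 was under the fold threshold without control replicate 1 (0.51) or STAT3-C replicate 1 (0.56). Grb2 was also under it after quantile normalization again (0.55) and with median centring (0.56), which makes the count in STAT3-C 3 higher.

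Gab1, the docking protein most used by EGFR, gave different results by probeset. It fell by 0.66 in v-Src at 1417693_a_at and stood at -0.04 in STAT3-C, whereas at 1417694_at it fell by 1.25 in v-Src and by 1.21 in STAT3-C. Without control replicate 1 the 4 adapters called lower in v-Src became 2, since Gab1 (-0.57) and Sos1 (-0.57) were then under the fold threshold. In the direct comparison 1 adapter gene was called higher (5.56%, beside 4.84% of all genes) and 3 lower (16.7%, beside 6.83%). These counts were 0 higher without STAT3-C replicate 1, 2 higher without v-Src replicate 1 or 5, and 5 lower without STAT3-C replicate 3.

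Among 18 inhibitors, ubiquitin ligases and sorting proteins of the receptors, 4 were called higher and 2 lower in v-Src cells, and 2 higher and 3 lower in STAT3-C cells, with medians of 0.11 in v-Src and 0.19 in STAT3-C. As shares these are 22.2% higher and 11.1% lower in v-Src, beside 9.54% and 10.4% of all genes, and 11.1% higher and 16.7% lower in STAT3-C, beside 11.9% and 10.3%. The lower share in v-Src and the higher share in STAT3-C are thus near those of all genes. Errfi1, an inducible inhibitor of the EGFR kinase, rose by 3.13 ± 0.44 in v-Src (8.78-fold, limma, adjusted p = 0.00187) and by 2.24 ± 0.30 in STAT3-C (limma, adjusted p = 0.000873). Lrig1, which promotes loss of ERBB receptors, fell by 0.96 in STAT3-C and stood at 0.08 in v-Src, a direct difference of 1.04 ± 0.15 (limma, adjusted p = 0.00353). Erbin, a partner of ERBB2, fell by 0.99 in v-Src and stood at 0.17 in STAT3-C (direct difference -1.16 ± 0.17, limma, adjusted p = 0.00419). Lrig3 fell by 0.86 in v-Src and 0.66 in STAT3-C, and Cblb, a ubiquitin ligase gene, rose by 0.83 in v-Src and 0.66 in STAT3-C.

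The other genes called higher with v-Src were Lrig2 (0.75) and Stam (0.61), and Stam was under the fold threshold without v-Src replicate 6 (0.52) or control replicate 2 (0.50). With median centring Stam was also under the fold threshold (0.54). Socs5, the other gene called lower with STAT3-C (-0.59), was likewise under it without control replicate 3 (-0.51) or STAT3-C replicate 3 (-0.57). The call of Cblb in STAT3-C was lost without control replicate 3, STAT3-C replicate 1 or STAT3-C replicate 2 (0.50 to 0.67), so that 1 gene was then called higher. Between the lines 3 were called higher in v-Src (Lrig1, Lrig2 and Socs5) and 2 lower (Erbin and Socs4). These are 16.7% and 11.1%, beside 4.84% and 6.83% of all genes. Without v-Src replicate 6 the higher calls were 1. Lrig2 (0.64 ± 0.17, limma, adjusted p = 0.0332) lost its direct call without any 1 of v-Src replicates 1, 5 and 6 and STAT3-C replicates 1 and 3 (0.45 to 0.69). The 2 lower calls were 1 without any of v-Src replicates 1 and 5 and STAT3-C replicates 1, 2 and 3, since Socs4 (-0.63, limma, adjusted p = 0.0463) then missed the threshold.

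Of 12 genes that are induced downstream of EGFR and ERK, 5 were called higher and 1 lower in v-Src cells, and 3 higher and 3 lower in STAT3-C cells, with medians of 0.50 in v-Src and 0.23 in STAT3-C. In v-Src these are 41.7% higher and 8.33% lower, beside 9.54% and 10.4% of all genes. The share called lower in v-Src is thus near that of all genes. In STAT3-C 3 of the 12 were called in each direction, beside 11.9% higher and 10.3% lower of all genes. Dusp4, an ERK phosphatase gene induced by ERK, rose by 2.86 ± 0.11 in v-Src (7.27-fold, limma, adjusted p = 7.51e-06) and by 0.88 ± 0.17 in STAT3-C (limma, adjusted p = 0.00568). Dusp6, another such phosphatase, fell by 1.80 in STAT3-C and stood at 0.53 in v-Src (limma, adjusted p = 0.102). Etv5, an ETS transcription factor gene, fell by 2.87 in STAT3-C and stood at -0.30 in v-Src. Fosl1, an AP-1 subunit gene, rose by 1.82 in v-Src and by 1.24 in STAT3-C.

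Between the lines, where the median was 0.69, 6 of the 12 were called higher in v-Src cells and 0 lower, by limma and by SAM (0 lower at an unadjusted p under 0.05). The share called higher was 50.0%, beside 4.84% of all genes, and 6.83% of all genes were called lower. Those called were Dusp4, Dusp6, Egr1, Etv4, Etv5 and Ier3, at 0.81 (Egr1) to 2.57 (Etv5). The call of Egr1 was lost without STAT3-C replicate 1 (0.82, limma, adjusted p = 0.0626) and with all 9 arrays in 1 fit (0.81, limma, adjusted p = 0.0887). Egr1 against control (1.35 ± 0.35, limma, adjusted p = 0.0262) was lost without v-Src replicate 5 (1.37, adjusted p = 0.0665) or 6 (1.16, adjusted p = 0.0906). Against control, v-Src had 3 genes called higher in place of 5 without v-Src replicate 6, and Spry2 (-0.65), the 1 called lower, was lost without v-Src replicate 5 or 6 or control replicate 1 or 2.

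**Figure D4:**
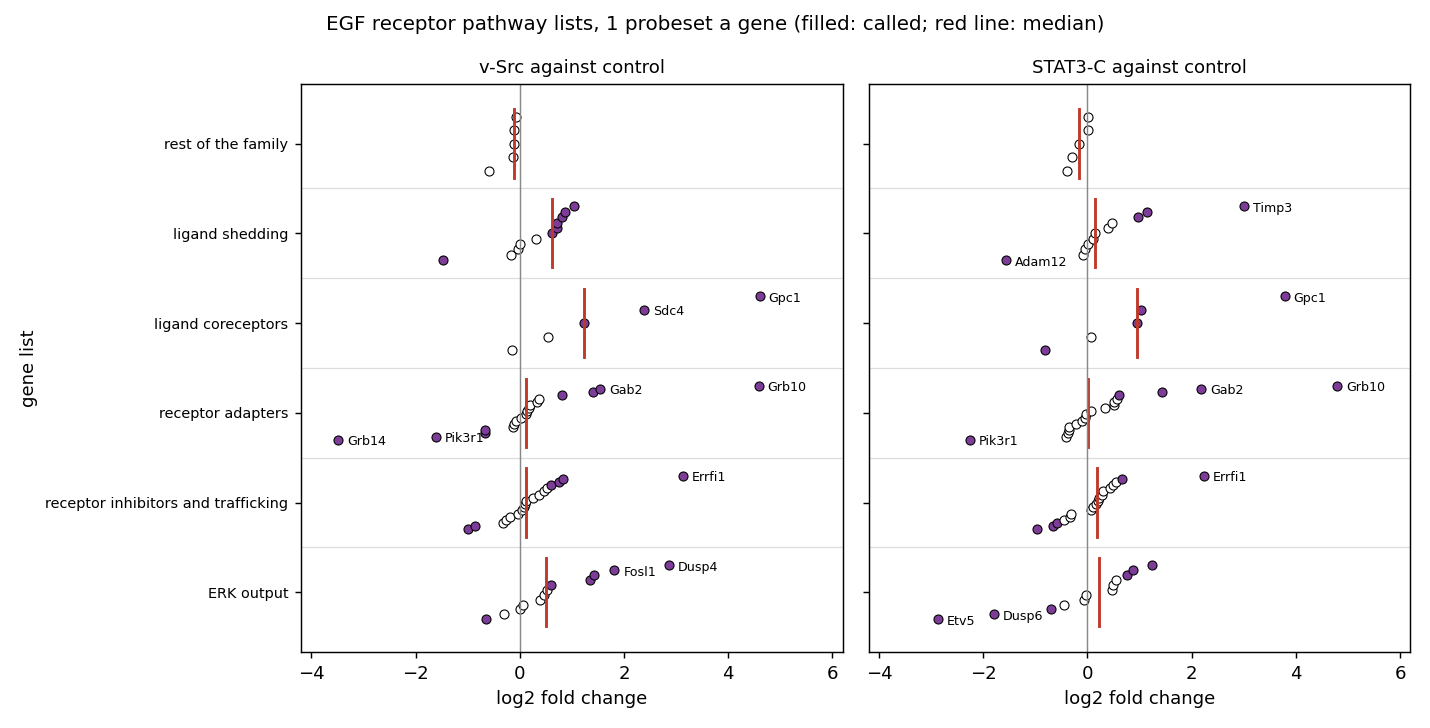
Log2 fold change of every measured gene of 6 lists of EGF pathway genes, 1 probeset a gene, in v-Src and in STAT3-C cells against control, with called genes filled and the median of each list as a red line. Grb10 and Gpc1 are the highest points in both lines, and Grb14 is the lowest in v-Src and Etv5 in STAT3-C.

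Likeness of pattern was measured as the mean absolute difference of log2 values centred on each gene's mean over the 9 arrays, and is a description without a test. Closest to Hbegf were Map1b (0.15), Dynap (0.20) and Plaur (0.21), each highest in v-Src and lowest in control. For Map1b the means were 8.87 in v-Src, 8.08 in STAT3-C and 6.70 in control cells. Closest to Nrg1 were Nt5c3 (0.07), Actr6 (0.08) and Pex3 (0.08), lowest in v-Src and highest in control. Closest to Ereg were Dbt (0.11), Zfp60 (0.12) and Map3k7 (0.13), highest in v-Src by their group means.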

How the data were processed

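Total RNA of the 9 samples was hybridized to Affymetrix mouse genome arrays, 1 array a sample. The authors made log2 intensities with RMA, and the deposited table has 1 column an array; values were not normalized again. The methods describe separate normalization of the controls with each line. However, exactly equal values between a v-Src and a STAT3-C array occurred in 7822 probesets (17.4%), against 7932 (17.6%) between v-Src and control and 6575 (14.6%) between STAT3-C and control, as arises when arrays are summarised together.

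Comparisons of 6 arrays were made with limma 3.58.1 in R 4.3.3 (lmFit, eBayes, Benjamini-Hochberg over 45037 probesets, with 64 array controls left out). Arrays show no read depth, and their number limits the precision. With 3 arrays against 3 an exact permutation test cannot go below p = 0.1. Of the probesets, 34945 carried 1 symbol, 932 several and 9160 none. For genes with several probesets the one with the highest mean over 9 arrays stands. The members and gene lists were chosen with earlier results of these data known. Named are all members, all genes of pathway lists of 5 or fewer, up to 4 called genes with the largest change a list and comparison, and the 3 genes of most alike pattern for 3 members. Adam9, Etv4, Grb2, Nck2, Socs4, Sos1, Spry2 and Stam, and the markers Thy1, Postn, S100a4, Epcam, Cd14 and Cd68, were named after their values were seen. Alternatives were the fit of 9 arrays, renormalization, median centring, a level filter, other thresholds, SAM over 20 groupings, eBayes with trend, leaving out each array, a replicate block and averaged probesets. The fit was tested on simulated data. Sequences are from RefSeq (GRCm38.p6); GC box and TATA letters were added after the promoters were read. Figures were drawn with matplotlib 3.10.9.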

Additional observations from a re-analysis of the deposited data

Results flagged for a closer look

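The direct test of v-Src against STAT3-C passed for 5 of 20 member probesets, so that the effects of the lines differed from each other there. Of all probesets, 4.99% were called higher and 5.33% lower in this comparison. At Egfr the log2 difference was -2.33 at 1424932_at, -1.83 at 1435888_at and -0.69 at 1451530_at. For Ereg it was 0.85, and for Nrg1 -0.70. The Egfr probesets share a gene and are not independent. The calls of Egfr 1451530_at, Ereg and Nrg1 were each lost in some runs that left out an array. The lines share their control arrays, and the difference was taken between the lines without them. Groups of 3 arrays are too small for a test of single outlying arrays.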

How the results depend on the processing

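No called member probeset changed sign under any alternative run. The shares of all probesets printed above belong to the main thresholds and cannot be set beside the counts at other thresholds. With a fold of at least 2, the member probesets called were 2 higher and 1 lower in v-Src, 4 higher in STAT3-C, and 0 higher and 2 lower in v-Src against STAT3-C. With no fold threshold, 1 was lower in STAT3-C (Nrg1) and 2 were higher in the direct comparison, as also with 9 arrays in 1 fit (2) and with SAM (2). With an adjusted p under 0.01, 0 were higher there. With probesets averaged for each gene, 2 genes were lower there (Egfr at -0.80 and Nrg1). Against control, averaged Egfr was then called in neither line (-0.22 in v-Src and 0.58 in STAT3-C), and Erbb3 was called in STAT3-C (0.74). Leaving out each array gave 4 to 5 higher and 3 to 3 lower in v-Src, 7 to 7 higher and 0 to 0 lower in STAT3-C, and 0 to 2 higher and 2 to 4 lower in the direct comparison (0 higher without STAT3-C replicate 1, 2 higher without v-Src replicate 6, STAT3-C replicate 2 or STAT3-C replicate 3, and 2 lower without v-Src replicate 1). Calls of single probesets that held under every alternative run on that probeset were 3 of 7 in v-Src, 4 of 7 in STAT3-C and 2 of 5 in the direct comparison, where both are Egfr probesets. This leaves out averaged probesets, and the level filter where it removed a called probeset. It removed Erbb3 1434606_at in both lines and Egfr 1424932_at in v-Src against control. Only STAT3-C and control share replicate numbers. Deviations of same-numbered arrays correlated at -0.09, 0.06 and 0.04, within the range of differently numbered arrays (-0.11 to 0.07). With 3 arrays a line this cannot show whether the numbers pair samples. With a replicate block 7 member probesets were called higher and 0 lower, out of 4447 and 3964 among all probesets. The level filter kept 12 of 20 member probesets. The causes of these shifts were not tested. Precision is limited by 3 arrays a line, passages of the same line, and by signal near background at Erbb3 1434606_at, Btc 1421161_at, Tgfa 1421943_at and Egfr 1457563_at.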
